A study of Mus musculus with 48 samples.

Results

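The 10 genes *Fos*, *Fosb*, *Jun*, *Junb*, *Egr1*, *Atf3*, *Ier2*, *Ier3*, *Socs3* and *Dusp1*, out of 46517 mouse genes counted, were followed from the intact liver through cell isolation, spheroid culture and engraftment in the eye. They were selected on the difference between hepatocyte preparations and livers in these same samples, so every value of theirs that involves either of those groups is a description and carries no test. Tests were restricted to explants against irises and to explants against spheroids, which that difference does not involve. The genes were chosen with earlier results of these data known, so these tests are not fully independent of the choice.

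Bulk RNA was sequenced from 16 samples, each as 3 technical libraries whose counts were summed. The samples were 3 livers of donor mice, 3 preparations of isolated primary hepatocytes, 2 samples of spheroids kept in vitro, 5 explants taken 2 months post-tx and 3 naïve irises. In all 5 groups the labels give WT Albino as the genotype and C57BL/6N as the strain, a strain that the methods do not list. For the preparations a liver was perfused with collagenase, the released cells were kept in cold plating medium with dexamethasone, and the dense hepatocyte fraction was pelleted through Percoll. Spheroids formed from such cells in ultra-low adherence plates, in medium that also held dexamethasone. An explant is an engrafted spheroid together with the iris around it, dissected by hand in cold PBS, so it holds the RNA of graft and host tissue. The methods describe the replicates of a group as biological, and the labels do not tie single samples to animals. In RNA of a whole sample, fewer cells of a type and less RNA per cell cannot be told apart.

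Totals ran from 2718518 counts in a hepatocyte preparation to 6789648 in an explant. The hepatocyte markers (10 genes such as *Alb* and *Ttr*) summed to 14360 to 15020 TPM (transcript abundance scaled for gene length and library depth) in livers, 14680 to 18030 in preparations, 11540 to 12820 in spheroids, 4951 to 7162 in explants and 1578 to 1874 in irises. The iris and lens markers summed to 4981 to 6494 TPM in explants and 7112 to 7847 in irises, against 358.1 to 495.8 in the other 3 groups. The labelled tissues thus carried their markers, with hepatocyte transcripts also counted in irises.

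Immediate early genes are switched on within minutes of a stimulus by transcription factors already present in the cell, without new protein synthesis, and most of their transcripts are short-lived. *Fos*, *Fosb*, *Jun*, *Junb* and *Atf3* encode bZIP proteins that pair with each other into AP-1 and related complexes, and *Egr1* encodes a zinc finger factor. *Socs3* and *Dusp1* encode feedback inhibitors of cytokine receptor and MAP kinase signaling, and *Ier2* and *Ier3* encode small proteins induced with them. In the liver the group is known for its response to partial hepatectomy, to cytokines and to enzymatic dissociation of the tissue.

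None of 6 motifs searched was found in all members whose promoters were at hand. Promoters of 8 of the 10 genes were found in the RefSeq table for GRCm38.p6, those of *Egr1* and *Ier2* not being used here. The 250 bases before each RefSeq start site were searched on both strands. For *Atf3* and *Socs3* this window lies inside the span of the counted gene given below. The core TGACG of the cAMP response element, which CREB and ATF proteins bind, was present in *Fos*, *Fosb*, *Junb*, *Atf3* and *Dusp1*, and in 17.8% of 32851 promoters of the table. The longer pattern TGACNTCA is the full element, and overlaps the core, where N is G. It was in *Dusp1* with N as G, in *Jun* with N as A, and in 7.49% of all promoters. *Socs3* held neither, but held the STAT site TTCNNNGAA (7.02% of all promoters), and *Socs3* and *Fosb* held the EGR site GCGNGGGCG (4.70%). None of the 8 windows held an AP-1 site of the form TGANTCA (6.75% of all promoters) or a CArG box, the binding sequence of serum response factor (1.47%). Other forms of these sites were not searched. Bases farther from the start sites were not searched, so a motif missing here may still lie upstream of the window. The promoters of *Fos* and *Jun*, the founding AP-1 genes, and of *Atf3* and *Socs3*, whose spheroid values stood far apart relative to the preparations, are shown 5′ to 3′ with these motifs in capitals. In *Fos* the core TGACG stands at 2 places, in *Jun* the capitals mark TGACNTCA, in *Atf3* the core on the opposite strand, and in *Socs3* first the EGR site on the opposite strand and then the STAT site.
Fos, chr12:85473640-85473889, plus strand: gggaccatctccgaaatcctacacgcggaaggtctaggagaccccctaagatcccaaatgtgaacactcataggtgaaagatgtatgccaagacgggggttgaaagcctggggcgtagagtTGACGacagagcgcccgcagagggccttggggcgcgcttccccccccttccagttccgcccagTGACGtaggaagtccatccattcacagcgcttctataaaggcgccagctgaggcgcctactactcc
Jun, chr4:95052223-95052472, minus strand: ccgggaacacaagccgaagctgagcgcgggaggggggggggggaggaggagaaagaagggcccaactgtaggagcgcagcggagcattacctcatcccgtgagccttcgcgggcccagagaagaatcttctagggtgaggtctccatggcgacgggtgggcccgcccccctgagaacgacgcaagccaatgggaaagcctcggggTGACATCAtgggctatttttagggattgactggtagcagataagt
Atf3, chr1:191183334-191183583, minus strand: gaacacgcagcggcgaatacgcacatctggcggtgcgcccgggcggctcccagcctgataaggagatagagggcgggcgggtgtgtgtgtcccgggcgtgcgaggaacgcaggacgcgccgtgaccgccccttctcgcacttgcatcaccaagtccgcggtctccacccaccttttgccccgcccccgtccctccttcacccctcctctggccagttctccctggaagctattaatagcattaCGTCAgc
Socs3, chr11:117969367-117969616, minus strand: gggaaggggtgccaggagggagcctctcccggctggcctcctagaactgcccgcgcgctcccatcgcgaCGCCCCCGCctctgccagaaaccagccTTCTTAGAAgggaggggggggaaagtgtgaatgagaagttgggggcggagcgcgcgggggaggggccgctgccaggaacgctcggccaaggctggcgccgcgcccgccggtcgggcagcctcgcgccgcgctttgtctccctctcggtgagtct

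All 10 genes were counted in the preparations, and 9 of them, all but *Ier3*, were higher in each of the 3 preparations than in any of the 3 livers. This is the contrast that chose them, and 7.35% of 12236 genes tested separated the groups in this way. *Fos* (ENSMUSG00000021250, chromosome 12 of GRCm38, 85473890 to 85477273) was at 4.15, 2.99 and 2.52 TPM in livers 1 to 3 and at 214.6, 502.0 and 340.6 in preparations 1 to 3. The 2 spheroid samples were at 22.3 and 61.2 TPM, between the groups and apart from each. On the log2 scale of the edgeR fit *Fos* stood 6.90 (SE 0.40) above livers in preparations and 3.60 (SE 0.51) above livers in spheroids. *Fosb* (ENSMUSG00000003545, chromosome 7, 19302721 to 19310045), a partner of Jun proteins close to *Fos*, had 1, 0 and 2 counts in the livers and 34, 121 and 94 in the preparations. The ratio of its summed counts, scaled to library totals, was 97.4 (exact 95% interval 32.96 to 475.7, counting error only) in preparations over livers. In spheroids *Fosb* had 5 and 10 counts, a ratio over livers of 8.28 (2.34 to 44.6).

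*Jun* (ENSMUSG00000052684, chromosome 4, 95049034 to 95052222), the central AP-1 partner, was at 38.9, 24.3 and 30.8 TPM in livers, 222.2, 463.2 and 424.4 in preparations, and 118.2 and 183.7 in spheroids. The 3 groups did not overlap. Reads of *Jun* and of the antisense gene *Junos* cannot be told apart over the 232 exon bases they share (7.28% of *Jun*), because counting ignored strand. *Junb* (ENSMUSG00000052837, chromosome 8, 84976909 to 84978748), whose protein can replace Jun in the complex, was at 49.6, 21.4 and 21.5 TPM in livers and 172.8, 347.2 and 284.9 in preparations. At 74.0 and 58.6 TPM the spheroids were above all livers and below all preparations. The log2 difference of spheroids from preparations was -2.36 (SE 0.31) for *Junb* and -1.60 (SE 0.39) for *Jun*.

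*Atf3* (ENSMUSG00000026628, chromosome 1, 191170296 to 191218039), a stress-induced repressor of the ATF family, overlapped between spheroids and preparations. Livers were at 15.2, 7.52 and 6.73 TPM and preparations at 15.3, 189.2 and 112.7. Preparation 1 was level with liver 1, at 47 counts each. Spheroids were at 134.8 and 60.9 TPM, within the range of the preparations and above every liver, with a log2 difference from livers of 3.17 (SE 0.39). The log2 difference of spheroids from preparations was -0.48 (SE 0.79), and without preparation 2 it was 0.26. *Egr1* (ENSMUSG00000038418, chromosome 18, 34859823 to 34864984), which binds GC-rich sites next to growth factor responsive genes, was at 10.4, 4.71 and 4.26 TPM in livers, 53.9, 162.7 and 126.7 in preparations, and 44.8 and 58.9 in spheroids. The spheroids overlapped preparation 1 and were 2.90 (SE 0.36) above livers.

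*Dusp1* (ENSMUSG00000024190, chromosome 17, 26505590 to 26508519), which dephosphorylates MAP kinases and is also a glucocorticoid target, was at 36.4, 39.4 and 32.5 TPM in livers, 100.7, 290.8 and 202.4 in preparations, and 128.5 and 155.2 in spheroids. Spheroids lay within the range of the preparations and 1.86 (SE 0.19) above livers on the log2 scale. *Ier2* (ENSMUSG00000053560, chromosome 8, 84661331 to 84662852) was at 11.4 to 16.9 TPM in livers, 56.6 to 137.3 in preparations, and 31.97 and 42.3 in spheroids. Its spheroid values fell between livers and preparations, overlapping neither.

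*Socs3* (ENSMUSG00000053113, chromosome 11, 117966079 to 117970047), which blocks JAK kinases downstream of interleukin 6 type receptors, did not stay up in culture. It was at 10.6, 8.52 and 9.35 TPM in livers, 88.2, 250.9 and 196.9 in preparations, and only 8.94 and 1.67 in spheroids. The spheroids had 34 and 6 counts, one sample inside the range of the livers and the other below it. The log2 difference of spheroids was -5.42 (SE 0.67) from preparations and -0.99 (SE 0.57) from livers, and without spheroid 1 the latter was -2.52.

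*Ier3* (ENSMUSG00000003541, chromosome 17, 35821684 to 35822923), a survival gene induced by NF-kappaB among others, had another order. Livers were at 13.6, 8.09 and 10.5 TPM and preparations at 12.4, 26.7 and 4.77, and the groups overlapped. Without preparation 2 its log2 difference turned from 0.59 to -0.14. Spheroids were at 110.2 and 49.8 TPM, above every liver and every preparation, by 2.75 (SE 0.38) and 2.08 (SE 0.55) on the log2 scale.

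Counted over the group, 6 genes were lower in both spheroid samples than in any preparation (*Fos*, *Fosb*, *Jun*, *Junb*, *Ier2*, *Socs3*), where 15.8% of 12247 genes tested were, and 1 was higher (*Ier3*), where 44.2% were. Against livers, 8 of the 9 genes that passed the filter on low counts were higher in both spheroid samples, all but *Socs3*, where 35.4% of 12959 genes tested were. *Fosb* did not pass that filter. Without spheroid 2 the log2 difference of *Fos* from livers was 2.53, and without spheroid 1 it was 4.21.

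**Figure D1:**
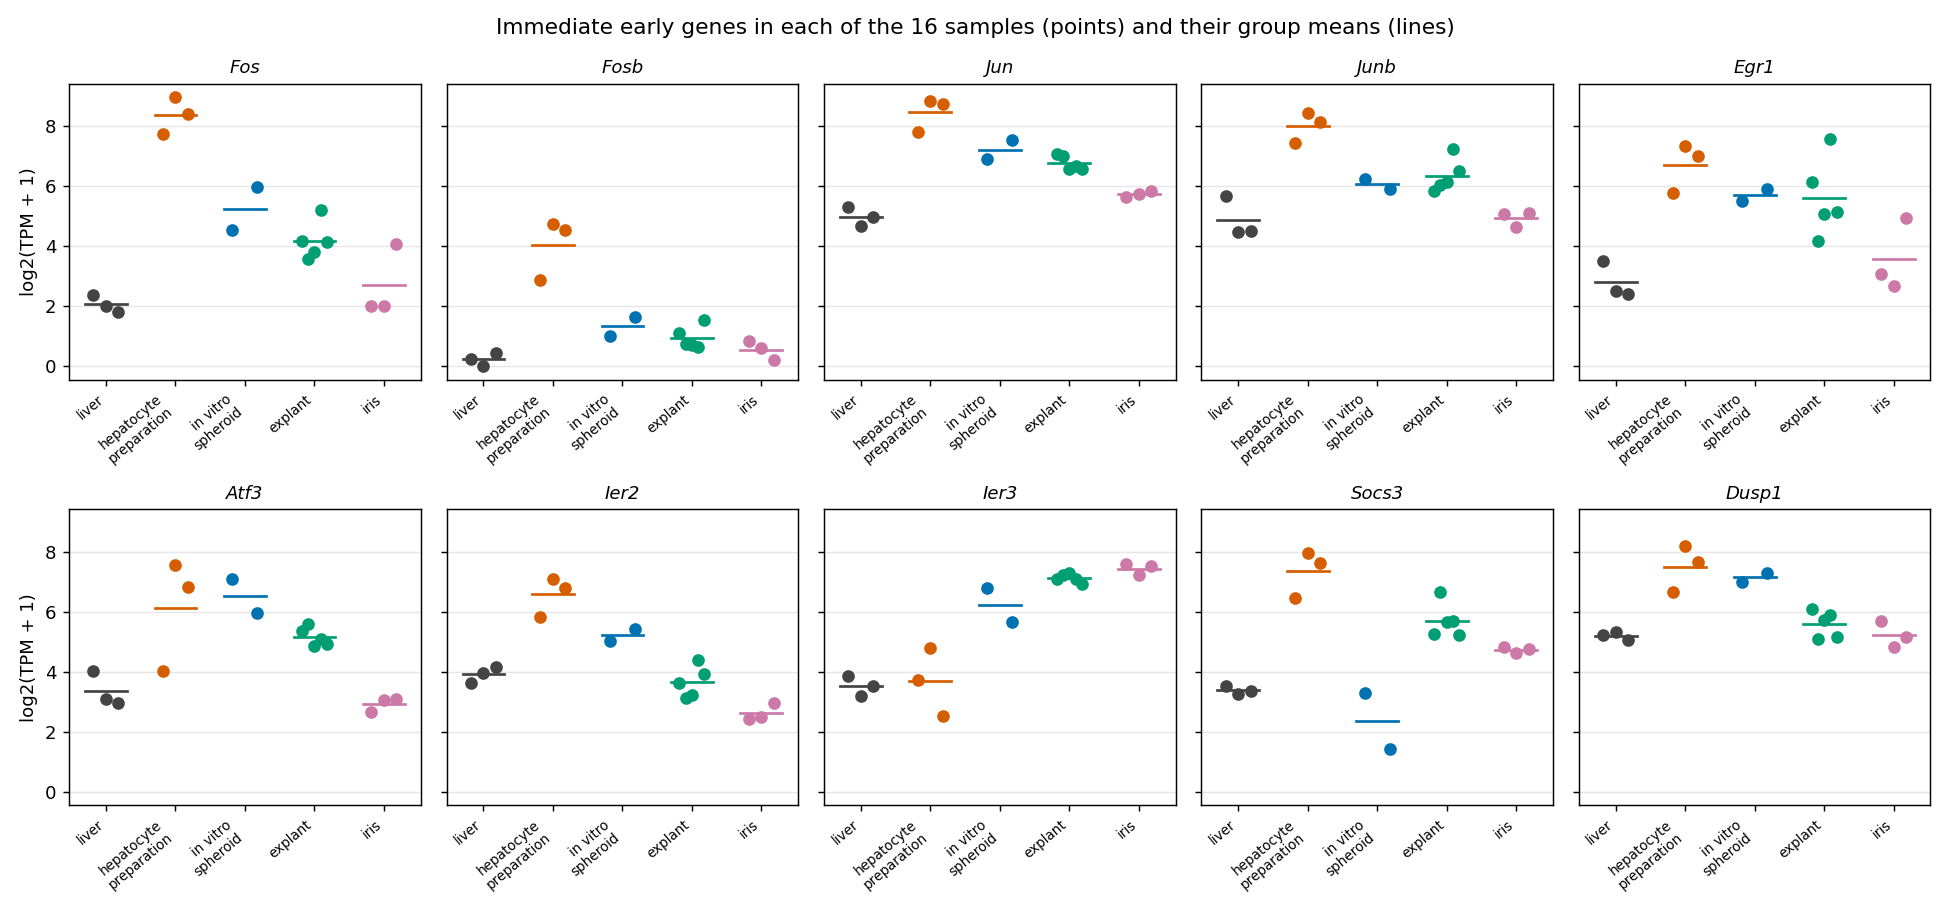
The level of each gene, as log2(TPM + 1), in every sample of the 5 groups, with a line at the mean of each group. On this scale the mean of the hepatocyte preparations is the highest for 8 genes, that of the spheroids for *Atf3* and that of the irises for *Ier3*, and *Socs3* is lowest in spheroids.

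Within the preparations the members had nearly the same order. Preparation 2 was the highest of the 3 for all 10 genes, and preparation 1 the lowest for 9, all but *Ier3*. The share of all genes with this order was not counted, and the preparations are among the samples that chose the members. Markers of other cells differed as well between preparations 1, 2 and 3. The macrophage list summed to 381.5, 202.5 and 272.1 TPM in that order and the endothelial list to 179.2, 62.7 and 153.2. The neutrophil list summed to 2.34, 9.45 and 1.85, with *Mmp8* and *Camp* at 0 in all 3 preparations. In livers the 3 lists summed to 638.7 to 909.7, 256.3 to 315.2 and 24.9 to 42.1 TPM. In spheroids they summed to 817.7 to 969.7, 94.9 to 103.1 and 0.499 to 2.09, with 7 of 10 neutrophil markers, among them *S100a8*, *S100a9* and *Ly6g*, at 0. The part of these cells in the levels of the 10 genes was not tested. Spheroid 2 was the higher of the 2 for 6 genes and spheroid 1 for *Junb*, *Atf3*, *Ier3* and *Socs3*.

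The wider early response was followed in 115 other genes in 5 lists, written with earlier results of these data known: AP-1 partners, other early transcription factors, feedback regulators, early effectors, and the ligands, receptors and kinases upstream. In preparations against livers 83 were tested, and 8 were called higher and 1 lower by edgeR's quasi-likelihood test (adjusted p under 0.05 and a log2 fold change over 1 in size). Over all 12236 genes 0.409% were called higher and 2.31% lower. The median log2 fold change of the 83 was -0.04, and that of all genes 0.01. Of the 20 feedback regulators tested 3 rose and 1 fell, of 18 effectors 5 rose, and of 6 AP-1 partners, 15 transcription factors and 24 upstream genes none was called. At an unadjusted edgeR p under 0.05 the AP-1 partners had 1 higher and 1 lower. At that p the transcription factors had 4 higher and 0 lower, and the upstream genes 1 higher and 9 lower. Over all 12236 genes 1292 were higher and 1808 lower at that p. DESeq2 called 15 genes of the 5 lists higher and 3 lower, and limma-voom 2 and 0.

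*Cxcl1*, a chemokine that attracts neutrophils, was at 269.9 ± 105.4 TPM (SD, n = 3) in preparations and 17.7 ± 2.86 in livers (n = 3), a log2 fold change of 4.07 (SE 0.35, edgeR adjusted p = 0.00399). *Ccn1*, a matrix protein gene induced by serum and by YAP, rose by 2.98 (SE 0.53, edgeR adjusted p = 0.0354). *Btg2*, an antiproliferative gene and p53 target, rose by 2.63 (SE 0.51, edgeR adjusted p = 0.0393). The smaller rises were those of *Trib1*, a pseudokinase gene (1.42), and *Phlda1* (1.25), and *Spry1*, an inhibitor of receptor tyrosine kinase signaling, fell from 61 summed counts in livers to 5 in preparations. The number called higher in these lists rested on single samples: it was 1 without preparation 2, without preparation 3 or without liver 2, 2 without liver 3, and 13 without preparation 1. The number called lower was 0 without any 1 of the 3 livers or without preparation 2 or 3, and 2 without preparation 1.

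In spheroids against preparations 87 genes of the lists were tested, and 13 were called higher and 18 lower, where 8.13% and 9.11% of all genes were. Their median was -0.19 and that of all genes 0.01. Called genes went both ways in every role but the AP-1 partners. Among the 21 feedback regulators 6 rose and 5 fell, among 19 effectors 5 rose and 6 fell, among 16 transcription factors 1 rose and 3 fell, among 25 upstream genes 1 rose and 3 fell, and of 6 AP-1 partners 1 fell. *Areg*, a ligand of the EGF receptor, had 21 and 51 counts in spheroids and 1 count in all preparations together, a ratio of 101.6 (exact 95% interval 17.7 to 4068). *Dusp8*, a phosphatase of stress-activated kinases, had 30 and 56 counts against 2 in all preparations, a ratio of 60.7 (16.3 to 509.0). *Ccl2*, a chemokine for monocytes, rose to 142.3 ± 149.2 TPM (SD, n = 2) from 3.56 ± 1.76 (n = 3), a log2 fold change of 4.85 (SE 0.78, edgeR adjusted p = 0.00448). *Il1b*, the inflammatory cytokine interleukin 1 beta, had 0 counts in both spheroid samples and 31 in the preparations, at least 7.32-fold lower with 3 counts over the group as the floor. *Gadd45g*, a stress gene, fell by 4.60 (SE 0.71, edgeR adjusted p = 0.0037), and *Socs2*, the growth hormone responsive relative of *Socs3*, fell by 3.97 (SE 0.49, edgeR adjusted p = 0.00171).

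In spheroids against livers 16 of 91 genes of the lists were called higher and 11 lower, where 8.24% and 11% of all genes were. Their median was -0.04 and that of all genes 0.01. The calls higher were 7 of 22 feedback regulators, 7 of 21 effectors, 1 of 17 transcription factors and 1 of 6 AP-1 partners, and those lower were 1, 2, 2 and 1 of these and 5 of 25 upstream genes. *Klf6*, a zinc finger factor of wound responses, was at 208.3 ± 10.6 TPM (SD, n = 2) against 14.9 ± 12.1 (n = 3), a log2 fold change of 3.70 (SE 0.49, edgeR adjusted p = 0.00219). *Ccl2* rose by 4.42 (SE 0.82, edgeR adjusted p = 0.00723), and *Areg* had 72 summed counts against 3 in livers, a ratio of 39.8 (exact 95% interval 13.1 to 197.3). *Socs2* fell by 3.34 (SE 0.32, edgeR adjusted p = 0.000842). *Klf2*, a factor of endothelium under flow, had 3 summed counts against 52 in livers, a ratio of livers to spheroids of 10.5 (3.39 to 52.4), and *Il1b* had 0 against 36, at least 7.24-fold lower. Without spheroid 1 the number called higher was 9. The comparisons of spheroids with preparations and with livers share the spheroid samples.

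**Figure D2:**
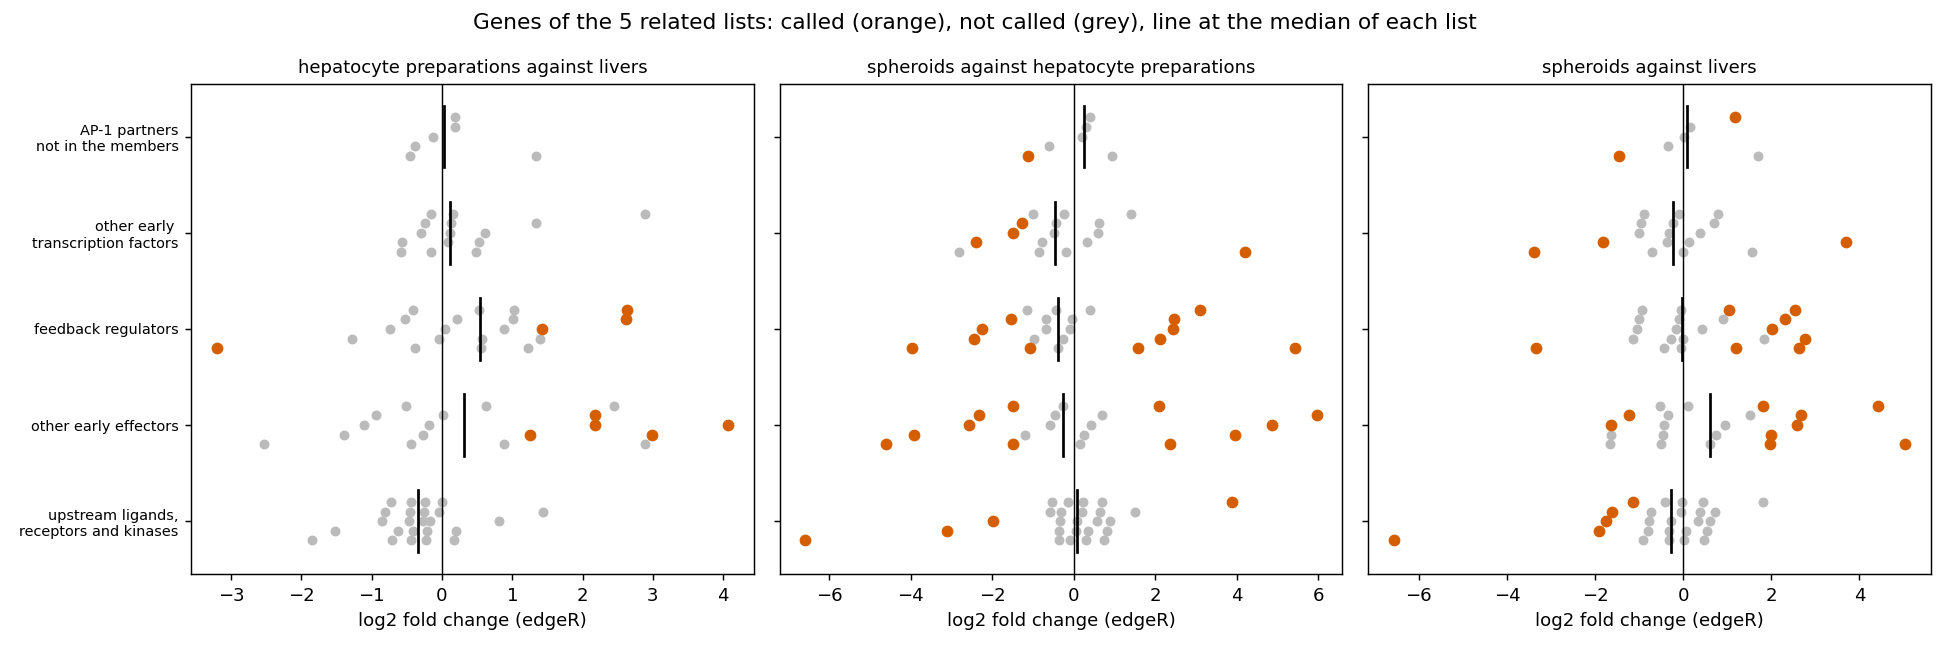
The log2 fold change of every tested gene of the 5 lists in 3 comparisons, 1 row per list, with genes past the test in orange and a line at the median of each list. In preparations against livers the called genes stand among feedback regulators and effectors, and in both spheroid comparisons called genes lie on each side of 0.

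After engraftment the question was whether the explants held more of these transcripts than the iris that surrounds them. In 5 explants against 3 irises, 9 of the 10 genes had enough counts to be tested and 4 were called higher, *Atf3*, *Jun*, *Junb* and *Socs3*, where 6.16% of 16764 genes tested were. None was called lower, where 0.316% were. At an unadjusted p under 0.05 edgeR had 7 higher and 0 lower, where 2956 and 1670 of the 16764 genes were. With limma-voom 2 were called, and without iris 1 or without iris 2 edgeR called 2. In 5 genes every explant was above every iris (*Ier2* with those 4), where 10.9% of all genes were. The median log2 fold change of the 9 was 1.34, that of all genes 0.01.

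*Atf3* was at 39.9, 47.5, 28.1, 33.2 and 29.5 TPM in explants 1, 2, 4, 5 and 6 and at 5.29, 7.45 and 7.60 in irises. That is a log2 fold change of 2.49 (SE 0.24, edgeR adjusted p = 0.000399), which held under all alternatives run. *Jun* was at 133.0, 127.1, 95.2, 102.2 and 94.9 TPM against 48.5, 52.3 and 56.1, a log2 fold change of 1.17 (SE 0.13, edgeR adjusted p = 0.000768). The explants stood close together for both genes, with a gap to the highest iris. *Junb* was at 56.5, 64.5, 69.2, 151.3 and 89.4 TPM against 32.6, 23.7 and 33.6, a log2 fold change of 1.63 (SE 0.34, edgeR adjusted p = 0.0147). Without any 1 of the 3 irises its call was lost, at an adjusted p of 0.0599 to 0.0779.

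*Socs3* was at 37.3, 100.5, 49.6, 51.4 and 37.1 TPM in explants and 27.61, 23.98 and 26.02 in irises. Explant 2 was far above the others, and the log2 fold change of 1.197 (SE 0.34, edgeR adjusted p = 0.0489) was 0.84 without it, under the limit. Its call was also lost without explant 4 or 5 (edgeR adjusted p = 0.0522 and 0.0751) and without any 1 of the 3 irises (0.134 to 0.157). It was lost as well with limma-voom (adjusted p = 0.105), with scaling by library size alone (0.0511), in a single edgeR fit of all 5 groups (0.0815) and with a replicate block (0.0909). *Ier2*, at 7.73 to 19.98 TPM in explants and 4.34 to 6.78 in irises, narrowly missed the threshold with a log2 fold change of 1.34 (SE 0.38, edgeR adjusted p = 0.0514), and DESeq2 called it. Together these 5 genes were the ones whose groups stood apart.

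*Egr1* and *Fos* varied within both groups. *Egr1* was at 70.3, 17, 32.4, 187.9 and 34.3 TPM in explants and 7.49, 5.44 and 30.03 in irises, and *Fos* at 17.1, 10.9, 12.9, 36.1 and 16.7 against 3.06, 3.00 and 15.99. Iris 3 stood above the other irises in both genes and above the lowest explant, so the groups overlapped, and explant 5 was the highest explant in both. The log2 fold changes were 2.33 (SE 0.85, edgeR adjusted p = 0.110) for *Egr1* and 1.44 (SE 0.60, edgeR adjusted p = 0.154) for *Fos*. Without iris 3 *Fos* was called, at 2.71. *Fosb* had 5 to 15 counts per explant and 1 to 5 per iris and was not tested.

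*Dusp1* was at 33.01 to 67.6 TPM in explants and 27.8 to 50.5 in irises, a log2 fold change of 0.46 (SE 0.25, edgeR adjusted p = 0.258). *Ier3* was at 120.9 to 157.0 TPM in explants and 149.8 to 191.0 in irises, the highest level of any of the 5 groups, and its log2 fold change was -0.23 (SE 0.11, edgeR adjusted p = 0.203). The groups overlapped in both genes. For *Ier3* explants 1, 5 and 6 were below every iris, and explants 2 and 4 were above iris 2 only. Macrophage markers summed to 831.4, 1642, 650.2, 1067 and 2063 TPM in explants 1, 2, 4, 5 and 6 and to 498.7 to 518.8 in irises, and neutrophil markers to 8.14 to 19.5 and 4.62 to 5.95, highest in explant 2, with *Ly6g* at 0 in both groups. The part of these cells was not tested.

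Of the 115 genes of the lists 102 were tested between explants and irises, with 11 called higher and 1 lower, where 6.16% and 0.316% of all genes were. Their median log2 fold change was 0.28 and that of all genes 0.01. The calls were 1 of 9 AP-1 partners, 3 of 20 transcription factors, of which 1 lower, 2 of 24 feedback regulators, 3 of 22 effectors and 3 of 27 upstream genes. *Ccl2* was at 69.3 ± 33.8 TPM (SD, n = 5) against 10.3 ± 0.877 (n = 3), a log2 fold change of 2.87 (SE 0.48, edgeR adjusted p = 0.00527). *Errfi1*, a feedback inhibitor of the EGF receptor, rose by 2.22 (SE 0.37, edgeR adjusted p = 0.00528) and *Il1b* by 2.09 (SE 0.51, edgeR adjusted p = 0.0288). *Ccn1* rose by 1.18 and *Socs2* by 1.00, and *Nr4a3*, an orphan nuclear receptor, fell by 1.30 (SE 0.23, edgeR adjusted p = 0.00775). The number called higher was 6 without explant 2 and 5, 3 and 4 without iris 1, 2 or 3.

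**Figure D3:**
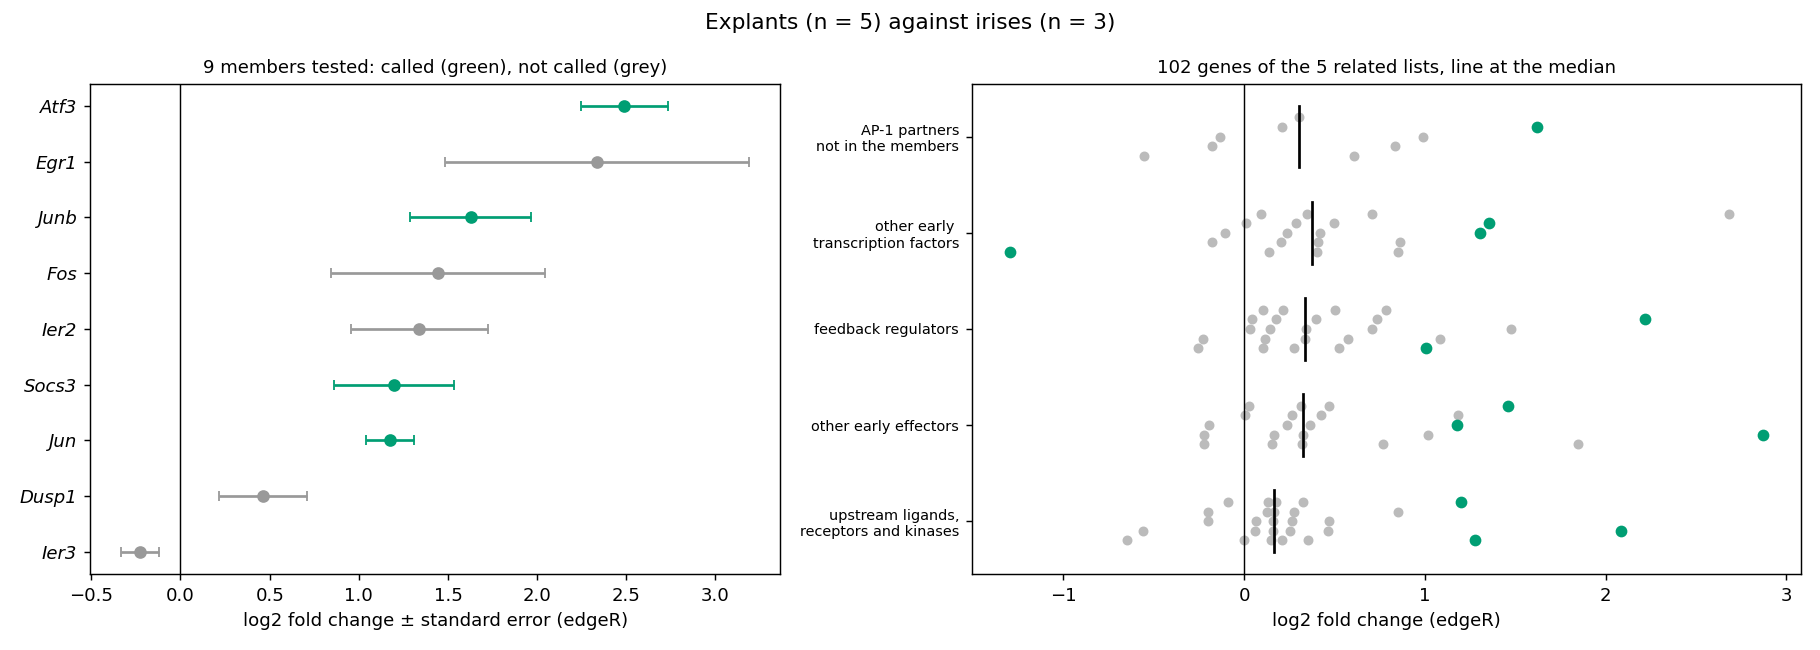
On the left, the log2 fold change of 9 genes with its standard error, and on the right that of 102 genes of the related lists with a line at each median, in 5 explants against 3 irises. *Atf3*, *Jun*, *Junb* and *Socs3*, in green, passed the test, and *Egr1* has the widest error.

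The correction for iris tissue used iris shares of 82, 68, 81, 72 and 59% in explants 1, 2, 4, 5 and 6, which the deposited corrected values imply. The iris mean times this share was subtracted from the TPM and the rest divided by the remaining share, in the same way for all 5 explants. The share of the explant level taken off was 9.71 to 19.6% for *Atf3*, the gene with the lowest median and maximum, and 78.9 to 106.3% for *Ier3*, which was highest in every explant, so that *Ier3* was set to 0 in explant 1. For *Egr1* it ran from 5.49% in explant 5 to 57.3% in explant 2, and for *Socs3* from 17.5% in explant 2 to 56.9% in explant 1. A corrected value of a gene with a large iris part carries the spread of the irises multiplied.

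**Figure D4:**
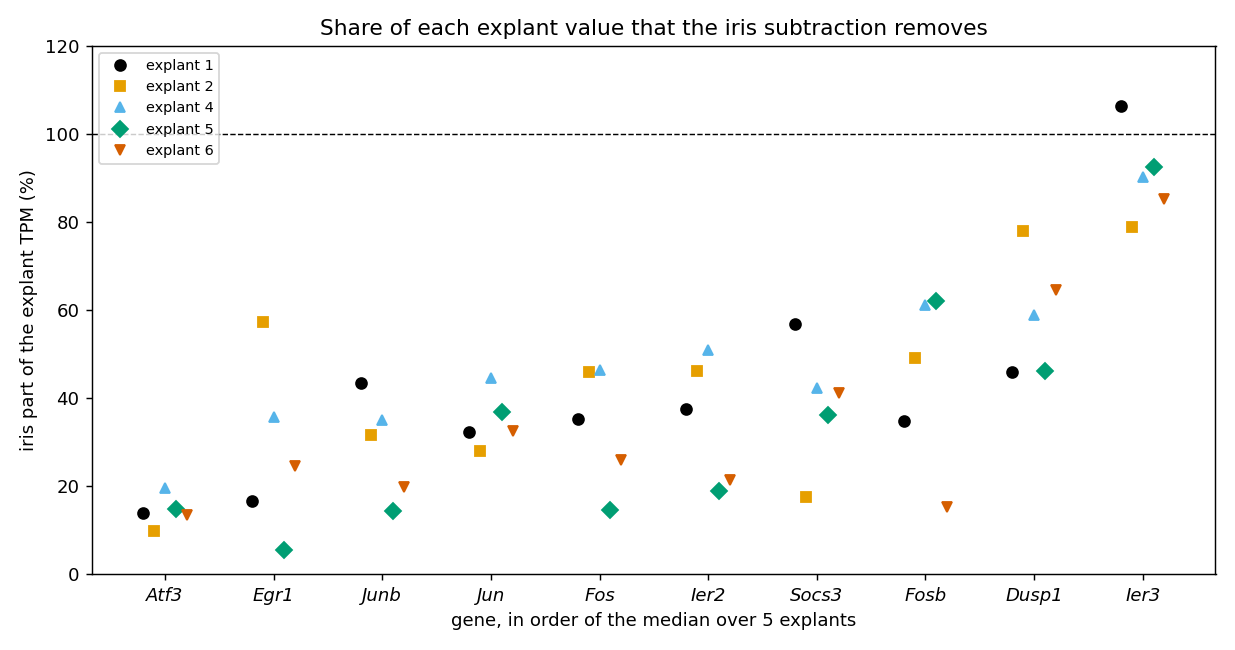
The percentage of each gene's level in an explant that equals the iris share times the mean iris level, for 5 explants, with genes in order of the median. *Atf3* lies at 19.6% or less in every explant, and *Ier3* lies at 78.9% or more and passes the dashed line in explant 1.

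After correction *Atf3* was at 190.9, 134.0, 118.9, 101.2 and 62.3 TPM in explants 1, 2, 4, 5 and 6, and *Jun* at 500.3, 285.9, 277.8, 230.5 and 156.2. *Socs3* was at 89.3, 259.1, 150.9, 117.1 and 53.1 TPM, and *Junb* at 177.3, 137.9, 236.4, 463.3 and 174.9. All 5 explants were above every liver in these genes and in *Fos* (18.4 to 109.9 TPM), *Fosb* (0.775 to 4.21) and *Egr1* (22.7 to 634.2), 7 of the 10, where 19.8% of 21002 genes with a mean of at least 1 TPM were. For *Ier2* (13 to 57.9), *Dusp1* (22.8 to 203.4) and *Ier3* (0 to 99.4) they overlapped the livers. *Fos* and *Fosb* were below every preparation in all 5 explants, their means 6.88 and 8.002 times lower, where 8.38% of 20726 genes were, and the other 8 genes overlapped the preparations. These relations to livers and preparations are not tested, since both groups chose the genes.

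**Figure D5:**
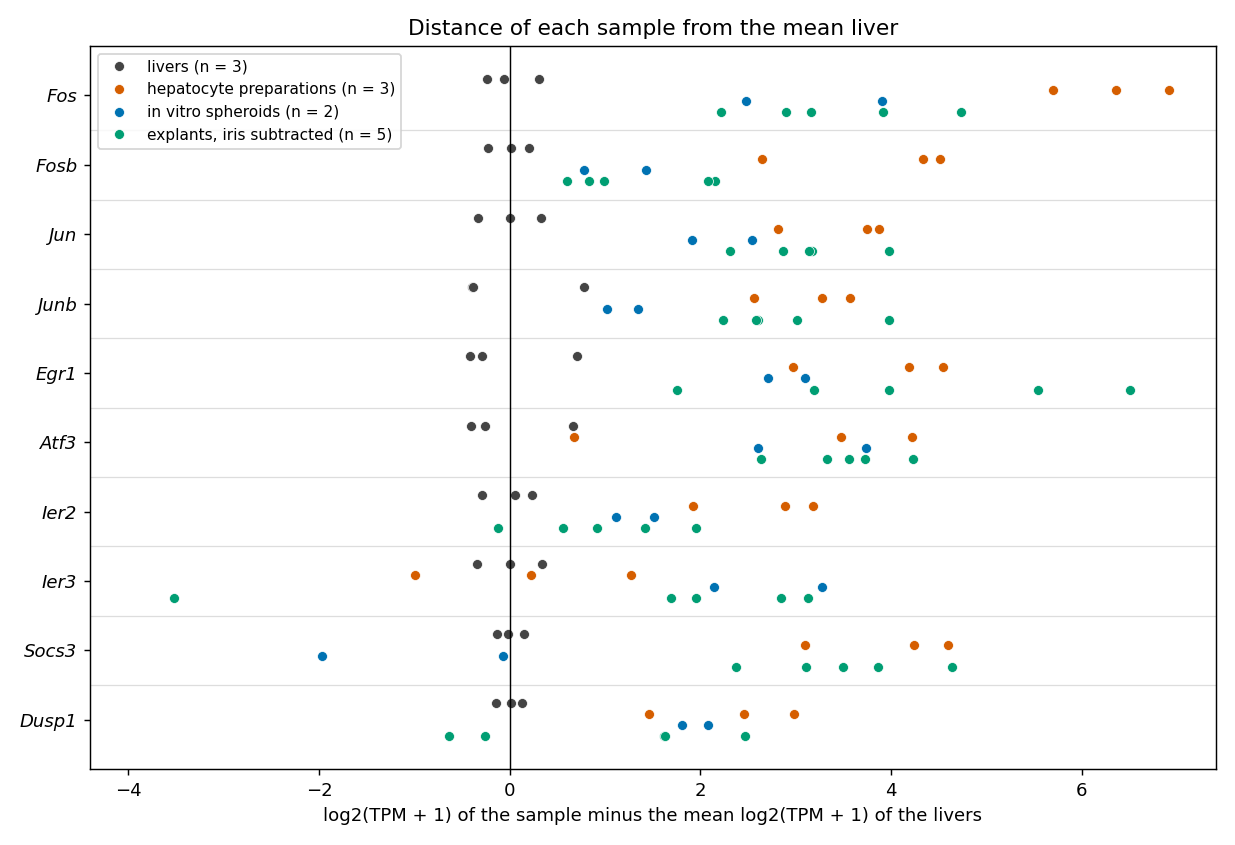
The log2(TPM + 1) of each liver, hepatocyte preparation, spheroid sample and iris-corrected explant, as a difference from the mean of the livers. *Fos* shows preparations farthest from livers with spheroids and explants between, *Atf3* shows the 3 groups side by side apart from preparation 1, and *Socs3* has spheroids at or below livers with explants well above.

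Corrected explants and spheroids were compared by limma on log2(TPM + 1), where fold changes of low genes are understated. The same iris mean was subtracted from all explants, and error in it and in the iris shares is outside the standard errors and p-values. All 10 genes were tested and 1, *Socs3*, was called higher in explants, where 5.00% of 21217 genes were, and none lower, where 0.957% were. At an unadjusted limma p under 0.05 there were 2 higher and 0 lower, where 2884 and 1018 of all genes were. *Socs3* averaged 133.9 ± 78.7 TPM (SD, n = 5) in corrected explants against 5.30 ± 5.14 (n = 2) in spheroids, a difference of 4.52 (SE 0.70, limma adjusted p = 0.00986). The median over all genes was 0.54 and that over the 10 members 0.28. Relative to the median of all genes *Socs3* remains the farthest of the 10. Without spheroid 2, the lower of the 2 samples, the difference was 3.57 and the call was lost (limma adjusted p = 0.138).

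Markers of immune cells differed between the same samples. With the same iris correction the macrophage list summed to 1240 to 4295 TPM in explants, above both spheroid samples (817.7 and 969.7), and 5 of its 10 genes were higher in every explant and 4 lower. *C1qa*, a complement gene of macrophages in general, was at 839.5 ± 387.4 TPM (SD, n = 5) in corrected explants and 87.5 ± 23.1 (n = 2) in spheroids. *Clec4f*, a marker of Kupffer cells, the resident macrophages of the liver, was at 3.50 ± 4.76 TPM against 93.8 ± 23.5. The neutrophil list summed to 25.3 to 51.5 TPM in corrected explants and 0.499 to 2.09 in spheroids, with *Ly6g* at 0 in both, and 2 of its 10 genes, *Csf3r* and *Cxcr2*, were higher in every explant. The part of these cells in the level of *Socs3* or of any gene compared between corrected explants and spheroids was not tested.

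*Junb* was the only other gene with every corrected explant above both spheroid samples, where 17.1% of all genes were, and its difference was 1.70 (SE 0.45, limma adjusted p = 0.0713). *Jun* was at 0.87 (SE 0.42, limma adjusted p = 0.324) and *Egr1* at 1.29 (SE 1.13, limma adjusted p = 0.573). *Fos*, *Fosb* and *Atf3* lay within 0.33 of the spheroids, under the median of all genes (0.54), with standard errors of 0.71, 0.75 and 0.48. *Ier2* (-0.37, SE 0.59), *Dusp1* (-0.98, SE 0.83) and *Ier3* (-1.49, SE 1.64) were on the other side of 0. Without the iris correction 6 of the 10 differences changed sign, and *Atf3* (-1.35), *Ier2* (-1.57) and *Dusp1* (-1.56) were called lower.

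Of the lists, 107 genes were tested between corrected explants and spheroids, and 11 were called higher and 0 lower, with 27 higher and 4 lower at an unadjusted limma p under 0.05. Over all 21217 genes 5.00% were called higher and 0.957% lower. The median difference of the lists was 0.86 and that of all genes 0.54. The calls were 5 of 28 upstream genes, 3 of 25 effectors, 2 of 20 transcription factors, 1 of 25 feedback regulators and 0 of 9 AP-1 partners. *Il1b*, *Tnf* and *Ptgs2*, an inflammatory cytokine pair and the inducible cyclooxygenase, were at 23.6 ± 13.5, 13.8 ± 5.13 and 11.4 ± 5.51 TPM (SD, n = 5) in corrected explants, and at 0, 0 and 1 counts in both spheroid samples together. *Stat3*, a transcription factor downstream of interleukin 6, was at 159.2 ± 45.8 TPM against 48.4 ± 10.5, a difference of 1.66 (SE 0.36, limma adjusted p = 0.0335). *Irf1*, an interferon-induced factor, rose by 2.15 (SE 0.37, limma adjusted p = 0.0149) and *Tnfrsf1a*, the receptor of TNF, by 1.27 (SE 0.24, limma adjusted p = 0.0213). No gene of the lists was called without spheroid 1 or without spheroid 2, and 6 were without explant 5.

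Over the 16 samples, on log2(TPM + 1), each gene was set against the mean of the other 9 in standard units. The Pearson correlation was 0.97 for *Jun*, 0.94 for *Fos* and *Junb*, 0.87 for *Egr1*, 0.86 for *Fosb*, 0.83 for *Dusp1*, 0.81 for *Atf3* and 0.76 for *Ier2*. *Socs3* was at 0.56 and *Ier3* at -0.25. Among 13657 other genes with a mean of at least 5 TPM, the 6 most like the mean of the 10 were *Junos* (0.97), *Gadd45a* (0.87), *Btg2* (0.84), *Uros* (0.83), *Gdf15* (0.82) and *Crem* (0.81). *Junos* shares exon bases with *Jun*, and its counts reach at most 17.3% of those of *Jun* in a sample. *Gdf15*, a stress-induced cytokine, was at 5.42 TPM in livers, 81.6 in preparations, 49.0 in spheroids, 6.96 in explants and 3.62 in irises, as group means. *Gadd45a*, a DNA damage gene, was at 10.9, 45.05, 20.01, 13.9 and 11.96 in the same order. The samples share groups, tissue and library depth, so these correlations describe the 16 samples only. They include the preparations and livers whose difference chose the genes, so high correlations among the members follow in part from the choice.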

How the data were processed

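Bulk RNA of 16 samples was extracted with an RNeasy kit, made into Smart-seq3 libraries, 3 technical libraries per sample, and sequenced. The deposited counts per gene were made by the authors with featureCounts on exons of GRCm38 after TopHat2 alignment and removal of duplicate reads, without strand and with reads counted for every gene they overlap; the TPM values were also deposited by the authors, as were iris-corrected explant values, here named a score because the deposited explant 4 column was made with the share subtracted from the iris mean. The correction was therefore recomputed from TPM for all 5 explants, with negative values set to 0. Counts of the 3 technical libraries were summed; 92 spike-in controls stayed out of totals and tests.

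Comparisons of counts used edgeR 4.0.16 quasi-likelihood tests (filterByExpr, TMM) on all genes of the groups compared, with Benjamini-Hochberg adjustment over all genes tested. Corrected explants were compared with spheroids by limma 3.58.1 with a trend, on log2(TPM + 1) of genes with a mean of at least 1 TPM. Calls needed an adjusted p under 0.05 together with a log2 fold change above 1 in size. Fits were also run on simulated data, with large changes in well-counted genes and the same spread for all genes. Such data do not cover genes with few counts or a wide spread. Totals of 2718518 to 6789648 counts set the precision; intervals are exact at 95% and, like the floor of 3 counts over a group, cover counting error only.

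Members and lists were chosen with earlier results of these data known, and the promoter motifs after the sequences had been read. The text names all 10 members, the 3 highest and 3 lowest called list genes by log2 fold change in each comparison, and the 6 genes most correlated with the mean of the members among genes with a mean of at least 5 TPM. Alternatives were DESeq2 1.42.0, limma-voom, other scalings, filters and pseudocounts, 1 technical library, a single fit of all groups, a replicate block and leaving out each sample.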

Additional observations from a re-analysis of the deposited data

Results flagged for a closer look

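The TPM and the iris-corrected TPM of each gene were looked at within the 5 explants. In 2 of these 20 sets a value stood apart from the rest of the explants by Dixon's criterion, where chance gives about 1 in 20. Both sets were TPM before correction. After correction *Fos* in explant 5 (109.9 TPM, next explant 61.7) and *Socs3* in explant 2 (259.1 TPM, next explant 150.9) did not stand apart by this criterion. *Fos* in explant 5 was at 36.06 TPM, with the next explant at 17.13 and the lowest at 10.88, a gap of 0.752 of the range against a critical value of 0.71. Its 3 technical libraries were alike, at 30.1, 28.4 and 28.8 CPM, against 6.43 to 17.9 in those of the other explants. *Socs3* in explant 2 was at 100.5 TPM, with the next explant at 51.41 and the lowest at 37.05, a gap of 0.774 of the range. Its technical libraries were at 90.0, 108 and 109 CPM, against 30.8 to 57.2 in the others. Explant 2 also had the highest neutrophil marker sum of the explants (19.5 TPM). Explant 6, the lowest in *Socs3*, was next at 13.5 TPM and had the highest macrophage sum (2063 TPM, against 1642 in explant 2). The part of these cells was not tested.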

How the results depend on the processing

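Between explants and irises, limma-voom called 2 members higher and leaving out 1 sample 2 to 4, against 4. The list genes called higher (11) were 5 with limma-voom, 7 from 1 technical library, 6 in a single fit of all groups, 23 with no fold limit and 3 to 12 leaving out 1 sample. Those called lower (1) were 0 from 1 technical library, 2 with no fold limit, 0 with the replicate block and 1 leaving out any sample. Between preparations and livers, list genes called higher (8) were 15 with DESeq2, 2 with limma-voom, 18 with no filter, 5 from 1 technical library, 17 in a single fit and 1 to 13 leaving out 1 sample. Those called lower (1) were 3 with DESeq2, 0 with limma-voom, 2 by library size alone, 7 with no filter, 0 at 10 counts or more in every sample, 0 from 1 technical library, 5 in a single fit, 2 with no fold limit and 0 to 2 leaving out 1 sample. Between spheroids and preparations, 8 list genes were called higher at 10 counts or more in every sample (13), with 10 to 15 higher and 12 to 20 lower leaving out 1 sample. Between spheroids and livers, 10 were higher at that filter (16) and 17 lower with no fold limit (11), with 9 to 22 higher and 8 to 12 lower leaving out 1 sample. Fewer genes or samples enter a stricter filter or a fit without 1 sample; the other causes were not tested.

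Between corrected explants and spheroids, the TPM before correction gave 3 members lower (0), 49 list genes higher (11) and 11 lower (0), and differences of -1.07 for *Fos*, -0.38 for *Fosb*, -0.43 for *Jun*, -0.091 for *Egr1*, -1.35 for *Atf3* and 0.90 for *Ier3*. Leaving out 1 sample, members called higher were 0 to 1 and list genes 0 to 16, and the differences ran from -0.52 to 0.90 for *Fos*, -0.094 to 0.55 for *Fosb* and -0.24 to 0.89 for *Atf3*, with *Fos* at -0.14 without explant 5. Library size alone moved the median log2 fold change of all genes to -0.10 in preparations against livers and 0.27 in spheroids against preparations.

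Whether replicate numbers pair the samples was not settled. The correlations of same-numbered deviations from group means were -0.11 to 0.19, and differently numbered samples were not set against them. With the replicate block, which rests on shared numbers only, *Fos* (2.23) and *Egr1* (2.61) were called between explants and irises and *Socs3* was not, and between corrected explants and spheroids 0 members and 4 list genes were called higher and *Fos* was at -0.13. Depth limits *Fosb*, at 15 counts or fewer in spheroids, explants and irises.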
